A study of Mus musculus with 4 samples.

Results

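*Hnf4a*, *Foxa1*, *Foxa2*, *Foxa3*, *Onecut1*, *Onecut2*, *Cebpa* and *Cebpb* encode transcription factors that are enriched in the liver. These 8 genes, of 22367 protein-coding genes in the mm9 annotation, were taken by their symbols. Their positions were set against the lamina-associated domains (LADs) of hepatocytes with and without *Tm7sf2* (NET47). *Tm7sf2* encodes a sterol reductase with a pool at the nuclear envelope (NE), although most of it is in the endoplasmic reticulum in most cell types tested. The rule that takes the 8 genes uses no measured value, and all 8 symbols were found, each with 1 protein-coding record. LaminB1-Dam or Dam alone was delivered by lentivirus for 24 h to primary hepatocytes of WT mice and of Tm7sf2/NET47 KO mice, both aged 12 to 16 weeks. The KO mice are Tm7sf2-/- throughout, so the loss was not limited to hepatocytes, and the cells were in culture when Dam was made. The study has 4 libraries, 1 of each construct for each genotype, and each library pooled DNA of 4 mice. There is thus no replicate, no difference between WT and KO carries an error between animals, and no test or p-value is given.

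Dam methylates the adenine of GATC sites in DNA that it meets, and its fusion to lamin B1 places it at the NE. Stretches where the fusion marks DNA more than Dam alone are called LADs, and they mostly hold genes that are silent in the cell at hand. HNF4A is a nuclear receptor that keeps hepatocytes differentiated, the FOXA proteins are pioneer factors that bind closed chromatin of liver genes, the ONECUT proteins act in liver and bile duct development, and the C/EBP proteins drive metabolic and acute-phase genes. The genes for these factors also regulate each other, and together they form the core network of hepatocyte identity.

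The WT list holds 8107 LADs over 55.4% of the genome and the KO list 16076 LADs over 56.1%, so a similar length was split into more pieces in KO. The lists hold intervals with no signal, read count or score, and the depth behind a single border is therefore unknown. The study describes the KO libraries as the shallower ones, and the part that depth had in the KO borders was not tested. Neither the loss of *Tm7sf2* nor the expression of hepatocyte genes such as *Alb* and *Ttr* can be checked from intervals. LAD borders lay at GATC sites in 98.9% of cases in WT and 99.5% in KO, so a border is placed no more finely than the nearest such site.

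None of the 8 genes touched a LAD in either genotype, but each of the 8 starts lay nearer to a LAD in KO than in WT. Genes were called PI where their span met a WT-only differential region (DR, a part of at least 10 kb of one LAD list that lies outside the other), IP where it met a KO-only DR, AMB where it met both, PP where it lay in a LAD of both genotypes, and II otherwise. All 8 genes were II, against 56.6% of all protein-coding genes, and 0 of their 23 exons lay in a LAD of either list. The median distance from the transcription start to the nearest LAD was 358.7 kb in WT and 33.1 kb in KO. It was 114.4 kb and 25.6 kb over all protein-coding genes, and 408.6 kb and 130.9 kb over the II genes alone. The shorter distance in KO is common in these lists, since 66.5% of all protein-coding genes and 83.5% of the II genes were nearer to a LAD in KO, and the 8 of 8 is to be read against these shares. The distance in WT was a median of 6.04 times that in KO for the 8 genes and 2.37 times for the II genes with a start outside KO LADs, and 7 of the 8 genes were above the latter value.

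**Figure D1:**
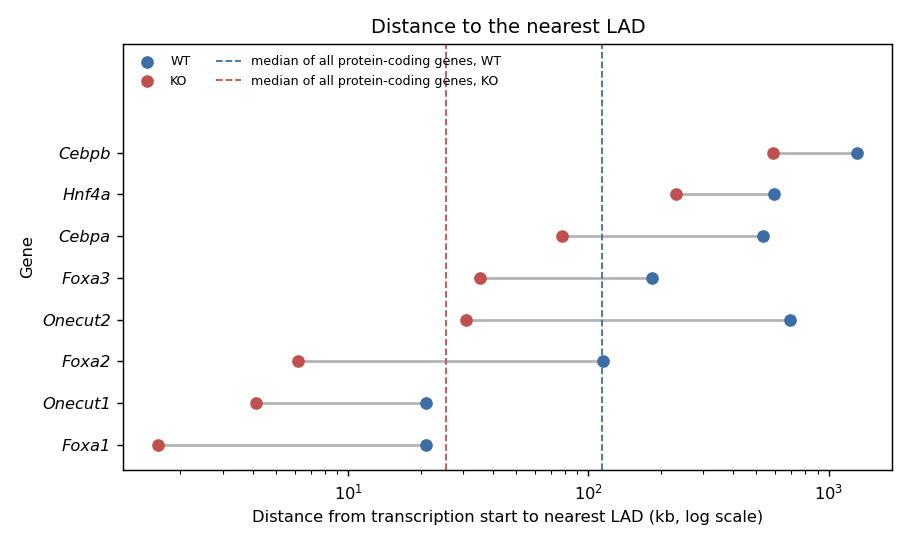
Distance from the transcription start of each of the 8 genes to the nearest LAD in WT (blue) and KO (red), in kb on a log scale, with dashed lines for the medians of all protein-coding genes (114.4 kb in WT, 25.6 kb in KO). Each red point lies to the left of its blue point, and *Foxa1*, *Onecut1* and *Foxa2* lie under 10 kb in KO.

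The size of this difference rested in part on short LADs. The nearest KO LAD was under 20 kb long for 5 of the 8 genes, against 57.9% of the II genes with a start outside KO LADs, and the nearest WT LAD was that short for 2 of the 8, against 40.7% of the II genes with a start outside WT LADs. Neither count of the 8 was far from its background. When LADs under 20 kb were left out of both lists, 7 of the 8 genes were still nearer in KO, and *Cebpb* was not (1318.4 kb in WT, 1324.1 kb in KO). Among the 7, *Cebpa* hardly differed (560.5 kb in WT, 560.1 kb in KO). The shares of all genes and of II genes nearer in KO hold for the full lists, and no such share is given under these length limits. When LADs under 50 kb were left out, 4 of the 8 genes were nearer in KO, namely *Foxa1*, *Foxa2*, *Foxa3* and *Onecut2*. The order of the genes was almost the same in both lists. From near to far it ran *Foxa1*, *Onecut1*, *Foxa2*, *Foxa3*, *Cebpa*, *Hnf4a*, *Onecut2* and *Cebpb* in WT, and in KO *Onecut2* stood in front of *Foxa3*. *Foxa1* and *Onecut1* lay at almost the same distance in WT, 21.0 kb and 21.1 kb, and their order there has no weight.

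**Figure D2:**
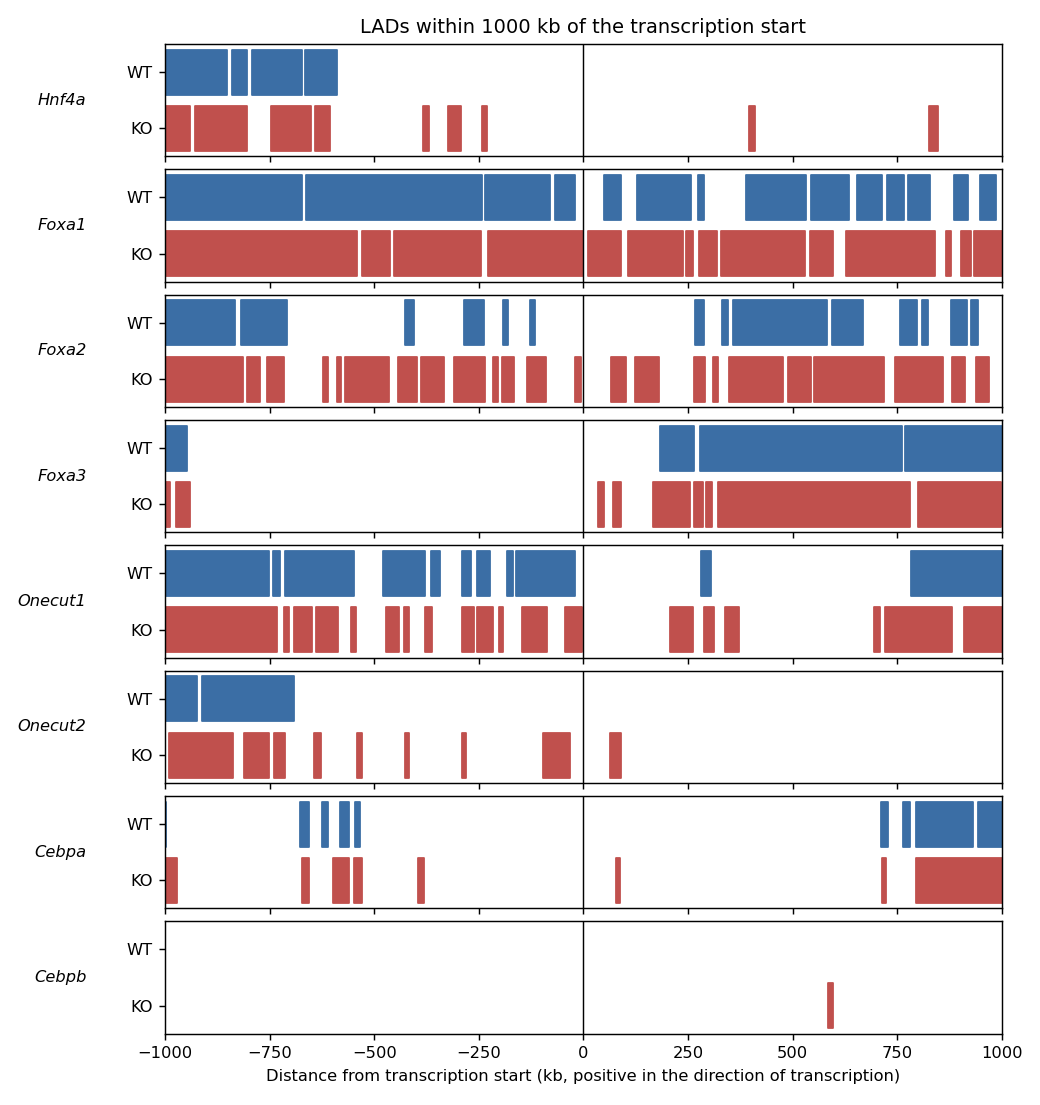
LADs of WT (blue) and KO (red) within 1000 kb on either side of the transcription start of each of the 8 genes (black line), with distance in kb along the direction of transcription. *Hnf4a*, *Onecut2* and *Cebpa* have an open field around the start in WT with single KO LADs inside it, *Foxa1* lies in a narrow opening between LADs, and *Cebpb* has 1 KO LAD in view.

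Within 10 kb of a KO LAD but not of a WT LAD lay 3 of the 8 genes, namely *Foxa1*, *Foxa2* and *Onecut1*, whereas 6.12% of the II genes did. Short KO distances were not particular to the 8 genes. Of 45 family members of these factors, 17 starts lay under 10 kb from a KO LAD or inside one, against 5 for WT LADs. For 28 lineage factors of other tissues these counts were 13 and 3, and for all 22367 protein-coding genes they were 9676 and 6807. Starts inside KO LADs, 10 for the family members and 10 for the lineage factors, are part of these counts, whereas no start of the 8 genes lay in a LAD. For all 8 genes the nearest KO border was that of a KO-only DR, as it was for 80.7% of the II genes. For 6 of the 8 genes the nearest KO LAD overlapped no WT LAD at all, against 76.0% of the II genes, and the exceptions were *Foxa1* and *Onecut1*, whose nearest KO LADs overlapped WT LADs in part and reached farther toward the gene. Sequences at 4 KO LAD borders beside *Foxa1*, *Foxa2* and *Onecut1* are shown because borders, and so all distances to LADs, are placed at GATC sites. The upstream borders of *Foxa1* and *Onecut1* set their distances in KO, and the downstream borders of *Foxa1* and *Foxa2* close the LAD-free stretch on the other side of the gene. They are read from the plus strand of NCBIM37 (mm9), 30 bases on each side of the border, with GATC in capitals. The sites of *Foxa1* are at chr12:58648697-58648756 upstream and chr12:58635036-58635095 past the 3′ end, that of *Foxa2* at chr2:147807750-147807809 past the 3′ end, and that of *Onecut1* at chr9:74705566-74705625 upstream.
Foxa1 upstream border: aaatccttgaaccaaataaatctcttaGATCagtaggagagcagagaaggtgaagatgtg
Foxa1 downstream border: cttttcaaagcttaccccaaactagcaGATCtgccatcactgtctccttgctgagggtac
Foxa2 downstream border: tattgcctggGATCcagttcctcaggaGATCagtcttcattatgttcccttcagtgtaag
Onecut1 upstream border: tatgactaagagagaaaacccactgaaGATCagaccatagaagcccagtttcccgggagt
In each of the 4 the border falls inside the GATC that starts at base 28. The *Foxa2* downstream border lies in an intron of the long noncoding *9030622O22Rik* and the *Onecut1* border in an intron of the long noncoding *Gm16551*, and no gene is annotated at the other 2.

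*Hnf4a*, the nuclear receptor of the group, lies at chr2:163332544-163398646 on the plus strand, with a span of 66.1 kb and 10 exons. Its nearest LAD was 589.7 kb upstream in WT and 230.7 kb upstream in KO. The KO LAD was 11 kb long, met the gene *Tox2* and overlapped no WT LAD. The 6 annotated starts of *Hnf4a* transcripts lay 230.7 to 274.0 kb from that LAD, so the choice of the start did not alter the picture. With LADs under 50 kb left out, *Hnf4a* was nearer in WT (589.7 kb) than in KO (651.9 kb). *Hnf4a* remained far from LADs compared with other genes, since 76.2% of protein-coding genes were nearer to a LAD in WT and 80.9% in KO.

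*Hnf4a* shared its surroundings with *Cebpb*. Both lay in 1 LAD-free stretch of 6090.0 kb in WT (chr2:162742831-168832807), 4.18 Mb apart. That stretch held 123 protein-coding genes, of which 117 were II and 6 IP. In KO it held 9 LADs that covered 2.48% of it, and 5 of these, 84.6 kb in all, lay between *Hnf4a* and *Cebpb*. The stretch around the start was 626.5 kb for *Hnf4a* and 1926.0 kb for *Cebpb* in KO.

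*Foxa1*, at chr12:58641618-58647108 on the minus strand with a span of 5.49 kb and 2 exons, was the nearest of the 8 genes to a LAD in KO and, with *Onecut1*, one of the nearest in WT. Its start was 21.0 kb from a LAD in WT and 1.62 kb in KO, with 38 and 3 GATC sites in between. The KO LAD upstream was 225.7 kb long and 86.3% of it was LAD in WT too. On the other side the KO border was 12 kb from the start, 6.55 kb past the 3′ end, where the WT border was 49.3 kb from the start. The LAD-free stretch around *Foxa1* was thus 70.2 kb in WT and 13.7 kb in KO, and *Foxa1* filled 40.2% of the latter, which held 41 GATC sites. *Ttc6* upstream (91.6% in LADs in WT, 100% in KO) and *Mipol1* downstream (69.0% and 85.3%) were both IP, so the genes on each side held more LAD in KO while *Foxa1* held none. When LADs were joined across gaps of up to 20 kb, the KO gap closed and *Foxa1* became IP, the one gene of the 8 to do so.

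*Foxa2*, at chr2:147868613-147872705 on the minus strand with a span of 4.09 kb and 3 exons, has no other protein-coding gene within 250 kb. Its start was 114.8 kb from a LAD in WT and 6.17 kb in KO, with 287 and 18 GATC sites in between. The KO LAD upstream was 14.6 kb long, and a second KO LAD of 36.6 kb lay 64.9 kb from the start on the other side. Neither overlapped a WT LAD. The stretch without LADs around *Foxa2* was 380.8 kb in WT and 71.1 kb in KO. The second KO LAD lay within *9030622O22Rik*, a long noncoding gene 2.67 kb from the 3′ end of *Foxa2* that was IP with 38.3% of its span in KO LADs. With LADs under 20 kb left out, the distances of *Foxa2* were 237.5 kb in WT and 64.9 kb in KO.

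*Foxa3*, at chr7:19598631-19608887 on the minus strand with a span of 10.3 kb and 2 exons, lies in a gene-dense stretch with 47 protein-coding genes in the 1000 kb around its start. Its start was 183.5 kb from a LAD in WT and 35.4 kb in KO. The KO LAD was 13.3 kb long, lay past the 3′ end, met *Nanos2* and overlapped no WT LAD. With LADs under 20 kb left out, the KO distance was 166.4 kb, close to the WT value. The LAD-free stretch of *Foxa3* differed little between the lists (1131.3 kb in WT, 976.3 kb in KO), since the next KO LAD upstream was 941.0 kb away. *Nova2*, *Nanos2* and *Mill2* were IP within 250 kb of *Foxa3*, all 3 on the downstream side.

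*Onecut1*, at chr9:74709728-74737591 on the plus strand with a span of 27.9 kb and 2 exons, was 21.1 kb from a LAD in WT and 4.13 kb in KO, with 53 and 12 GATC sites in between. The KO LAD was 40.9 kb long, and 58.6% of it was LAD in WT. It covered 9.35 kb of *Gm16551*, including its start. *Gm16551* is a long noncoding gene on the same strand whose span of 43.0 kb holds all of *Onecut1*, and it was IP, while *Onecut1* was II. *Onecut1* was also the member with the most LAD length lost nearby, with 6 WT-only and 5 KO-only DRs in the 1000 kb around its start (152.7 kb in LADs of WT alone and 147.6 kb in LADs of KO alone). The lengths on either side were close, and the net coverage of the locus hardly differed. With LADs under 50 kb left out, *Onecut1* was nearer in WT (21.1 kb) than in KO (86.4 kb).

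*Onecut2*, at chr18:64500002-64560641 on the plus strand with a span of 60.6 kb and 2 exons, had the largest ratio of the distance in WT to that in KO. Its start was 692.6 kb from a LAD in WT and 30.9 kb in KO, a ratio of 22.4, although the difference in kb was larger for *Cebpb* (733.0 kb against 661.7 kb). The KO LAD upstream was 64.9 kb long and held the whole of *St8sia3*, which was IP with 0% of its span in LADs in WT and 100% in KO. A second KO LAD of 27.2 kb began 3.12 kb past the 3′ end of *Onecut2*. Neither overlapped a WT LAD. The LAD-free stretch was 1719.9 kb in WT and 94.6 kb in KO, of which *Onecut2* filled 64.1%. Its distances were the same with LADs under 50 kb left out (692.6 kb and 30.9 kb).

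*Cebpa*, at chr7:35904312-35906945 on the plus strand with a span of 2.63 kb and 1 exon, was 533.9 kb from a LAD in WT and 77.5 kb in KO. The KO LAD was 10.4 kb long, close to the shortest length in the list (10 kb), and met *Slc7a10* and *Lrp3* downstream, both IP. With LADs under 20 kb left out, *Cebpa* was 560.5 kb from a LAD in WT and 560.1 kb in KO, so its shorter distance in KO rested on LADs under 20 kb. Its neighbor *Cebpg*, which encodes another C/EBP protein, was II.

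*Cebpb*, at chr2:167514415-167515918 on the plus strand with a span of 1.5 kb and 1 exon, was the farthest from LADs of all 8 genes. Its start was 1318.4 kb from a LAD in WT and 585.3 kb in KO. The KO LAD was 12.3 kb long, met *Kcng1* and overlapped no WT LAD. No LAD of either list lay in the 1000 kb around its start, and 90.5% of protein-coding genes were nearer to a LAD in WT and 94.6% in KO.

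**Figure D3:**
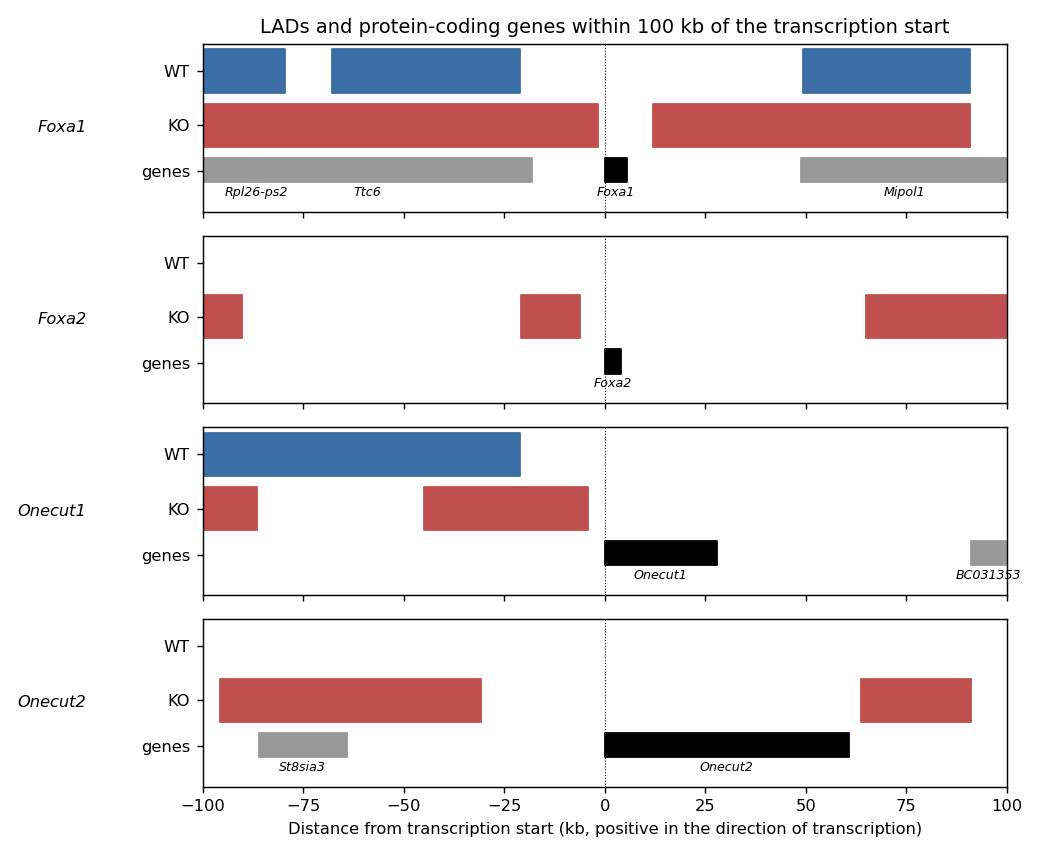
LADs of WT (blue) and KO (red) and protein-coding genes (black for the named gene, gray for others) within 100 kb of the starts of *Foxa1*, *Foxa2*, *Onecut1* and *Onecut2*, in kb along the direction of transcription. The KO LADs end 1.62 kb from the start of *Foxa1*, 6.17 kb from that of *Foxa2* and 4.13 kb from that of *Onecut1*, and 3.12 kb past the 3′ end of *Onecut2*.

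In 3 of the 8 genes, *Foxa1*, *Foxa2* and *Onecut2*, the gene was the only protein-coding one to touch its LAD-free stretch in KO, whereas 3.84% of the II genes were alone in this way. In WT only *Foxa2* was alone, against 1.86% of the II genes. The 1000 kb around *Foxa1*, *Foxa2* and *Onecut2* held few protein-coding genes (6, 4 and 6), against a median of 16 over all protein-coding genes. *Onecut1*, with 7, was not alone in its stretch. The part that gene density had in these counts was not tested. Counted by the 100 kb centered on the gene instead of by the gene span, 5 of the 8 genes met KO-only DRs and no WT-only DR (*Foxa1*, *Foxa2*, *Foxa3*, *Onecut1* and *Onecut2*), against 27.1% of all protein-coding genes. Within 250 kb of the 8 genes lay 62 protein-coding genes, of which 49 were II, 10 IP, 3 PP and 0 PI. Of all 22367 protein-coding genes, 56.6% were II and 17.1% IP, 4011 were PP and 1215 were PI.

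LAD coverage around the start was highest for *Foxa1* and lowest for *Cebpb*. In the 1000 kb centered on the start it was 75.5% in WT and 91.1% in KO for *Foxa1*, and 27.1% and 58.3% for *Foxa2*. It was 30.2% and 33.2% for *Foxa3*, and 35.3% and 34.8% for *Onecut1*. *Onecut2* (0% and 11.3%), *Hnf4a* (0% and 6.81%), *Cebpa* (0% and 2.5%) and *Cebpb* (0% in both) had no WT LAD there. Coverage was higher in KO for 6 of the 8 genes, lower for *Onecut1* and 0 in both lists for *Cebpb*. Its median was 13.6% in WT and 22.3% in KO, against 1.87% and 7.78% over the II genes and 23.3% and 28.8% over all protein-coding genes. The WT median of the 8 genes fell between 4 genes at 0%, below the II median, and the others at 27.1% or more. It thus stands for no single gene, and the 8 genes did not share one kind of surroundings. In the 200 kb around the start, coverage was higher in KO for 5 genes and lower for *Onecut1* (39.5% in WT, 27.3% in KO). In the 500 kb it was higher in KO for 7 of the 8 genes. *Onecut1* had 36.0% in WT and 37.3% in KO there, so the sign for *Onecut1* depended on the window. Median coverage over all protein-coding genes was also higher in KO, at 11% in WT and 22.6% in KO in the 500 kb. In the 200 kb it was 0% and 16%. Over the II genes the medians were 0% and 4.71% in the 500 kb and 0% in both lists in the 200 kb. The share of background genes with higher coverage in KO is not given, so these counts of the 8 genes have no share beside them.

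**Figure D4:**
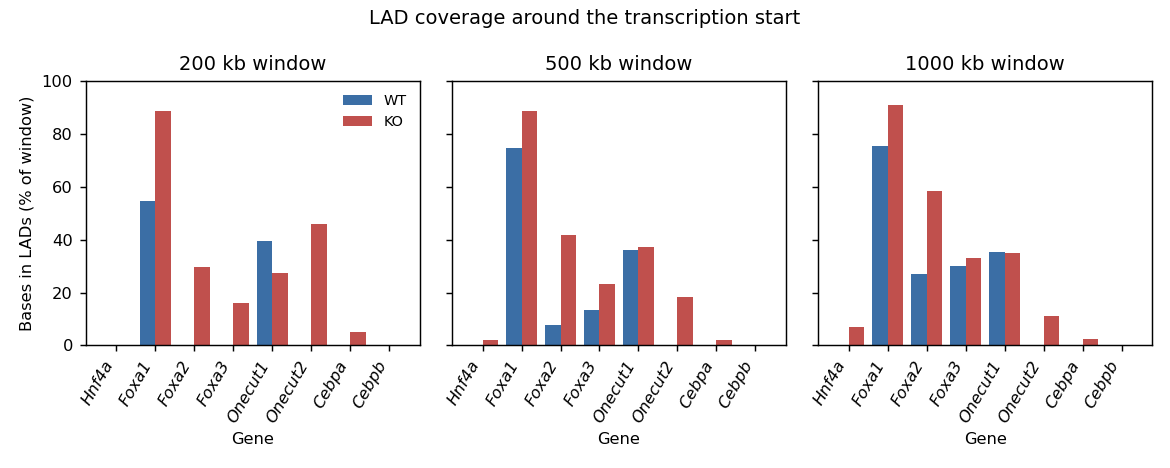
Share of bases in LADs (%) in the 200, 500 and 1000 kb centered on the start of each of the 8 genes, in WT (blue) and KO (red), 1 bar for each list. *Foxa1* has the highest bars in all 3 windows (75.5% in WT and 91.1% in KO over 1000 kb), and *Cebpb* has none.

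The sequence just before the start bears on what DamID can read there, because a stretch without GATC gives no fragment end of its own. In the 200 bases before the start, GATC was found for 2 of the 8 genes (1 site for *Foxa3* and 2 for *Cebpa*), while 32.9% of all such windows in 22362 genes held one. The 3 windows of the genes that came within 10 kb of a KO LAD are shown in the direction of transcription, at chr12:58647109-58647308 on the minus strand for *Foxa1*, chr2:147872706-147872905 on the minus strand for *Foxa2* and chr9:74709528-74709727 on the plus strand for *Onecut1*. Capitals mark the forkhead motif TGTTTAC or its reverse complement.
Foxa1: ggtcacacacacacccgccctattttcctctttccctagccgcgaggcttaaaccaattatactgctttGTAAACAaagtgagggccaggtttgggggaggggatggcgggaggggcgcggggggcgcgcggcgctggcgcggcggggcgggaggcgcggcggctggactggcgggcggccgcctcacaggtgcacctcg
Foxa2: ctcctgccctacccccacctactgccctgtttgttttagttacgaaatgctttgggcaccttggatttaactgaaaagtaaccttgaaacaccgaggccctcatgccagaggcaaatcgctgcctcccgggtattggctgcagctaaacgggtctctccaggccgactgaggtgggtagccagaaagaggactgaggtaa
Onecut1: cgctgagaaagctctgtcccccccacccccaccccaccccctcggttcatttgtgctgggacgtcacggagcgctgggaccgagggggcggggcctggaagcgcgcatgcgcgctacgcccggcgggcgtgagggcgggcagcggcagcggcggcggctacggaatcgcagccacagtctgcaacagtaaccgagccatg
The forkhead motif was found in the window of *Foxa1* alone, from base 70, against 2.15% of all windows on either strand. The C/EBP motif TTGCNNAA (7.20% of all windows), the HNF4 motif CAAAGTCCA (0.335%) and the ONECUT motif ATCGAT (0.595%) were found in none of the 8. A match or its absence in these letters says nothing of binding.

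For each gene, the 3 protein-coding genes with the most similar LAD coverage were sought over 40 values, which are the 20 windows of 100 kb around the start in both lists, leaving out genes within 1 Mb. For *Foxa1* they were *Esx1*, *Wasl* and *E2f5* (Euclidean distance 1.04 to 1.07), and for *Foxa2* *Acsl4*, *AI427809* and *Ptpn12* (1.33 to 1.71). *Onecut1* was closest to *Akr1c12*, *Dsg2* and *Dsg3* (1.62 to 1.68). *Foxa2* and *Onecut1* had the loosest matches, and their 1000 kb held the most KO LADs, 14 and 11. The remaining 5 had closer matches, which were *Ddr1*, *Zfp319* and *Cxcl16* for *Hnf4a* (0.547 to 0.601), *Arpc5l*, *Nemf* and *Wdr38* for *Foxa3* (0.655 to 0.670), *Thada*, *Gm4889* and *Stox1* for *Onecut2* (0.752 to 0.772), *Agxt*, *Prmt1* and *Cpt1c* for *Cebpa* (0.786 to 0.812), and *Rpl35a*, *Lmln* and *Fubp3* for *Cebpb* (0.00921 to 0.0110). Among the 3 for *Foxa1*, *Esx1* and *E2f5* were IP with their starts in KO LADs, where the start of *Foxa1* was not.

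Other transcription factors of the liver were also outside LADs. Of 30 listed, 29 were II and 1, *Zbtb20*, a zinc finger repressor of *Afp*, was AMB with its start in a KO LAD. Their median distance was 586.6 kb in WT and 179.6 kb in KO, and 26 of the 30 (86.7%) were nearer in KO, near the 83.5% of the II genes. *Hlf*, a PAR bZIP factor, was nearest in WT at 5.66 kb, and *Rxra*, the partner of many liver nuclear receptors, was farthest at 3060.2 kb. Hepatocyte products, the targets of these factors, were II in 20 of 24 genes, with *Cps1* of the urea cycle PI, *Tdo2* of tryptophan breakdown PP, and the X-linked *Otc* and *F9* AMB. Their median distance was 189.8 kb in WT and 80.8 kb in KO, and 19 of the 24 (79.2%) were nearer in KO, between the 66.5% of all genes and the 83.5% of the II genes. No gene of either list was IP, but the AMB genes *Zbtb20*, *Otc* and *F9* also met KO-only DRs. Of all protein-coding genes, 56.6% were II and 17.1% IP. *Cyp7a1*, the rate-limiting enzyme of bile acid synthesis, was the nearest of the products in WT at 0.454 kb, and it was 23.5 kb away in KO.

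**Figure D5:**
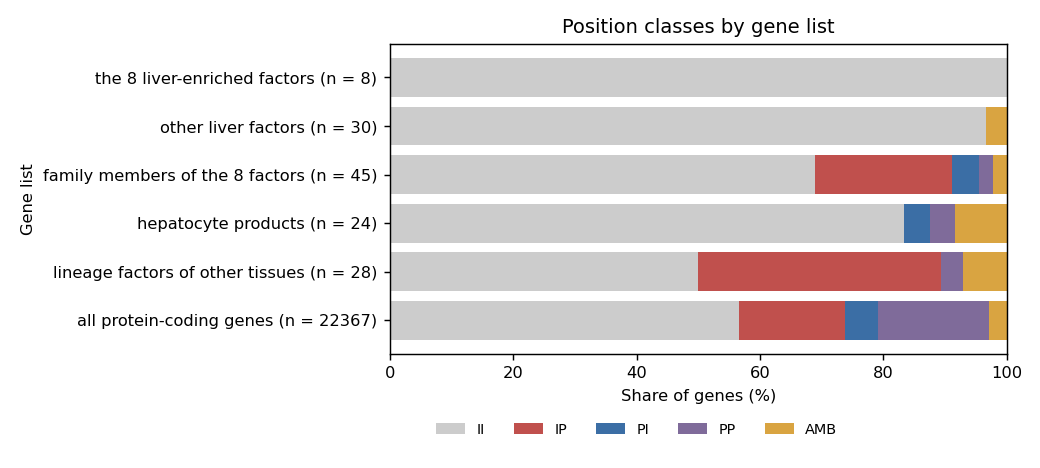
Share of genes (%) in each position class for the 8 liver-enriched factors, 4 other gene lists and all protein-coding genes, where the number of genes stands beside each list. All 8 factors are II, against 56.6% of all protein-coding genes. IP genes, 17.1% of all protein-coding genes, appear in the lists of family members and of lineage factors of other tissues but in neither of the other liver lists. Both of those liver lists hold AMB genes, which meet KO-only DRs as well as WT-only ones.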

How the data were processed

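Positions came from 4 deposited lists of intervals without values, 2 of LADs and 2 of DRs. The authors mapped the reads to mm9 (BWA is named in the submitters' processing notes), computed for each DpnI fragment the log2 of the Dam-LaminB1 signal over that of Dam alone and segmented this profile into LADs with DNAcopy. DRs are the parts of one list outside the other. Repeating the subtraction with a minimum of 10 kb returned the deposited DRs with the same borders. limma is also named in these notes, with no role given.

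Intervals were set against the NCBIM37 genome, the same assembly as mm9, and its GENCODE annotation (22367 protein-coding genes on 21 chromosomes). Positions are 1-based. The start is the 5′ end of the gene span, and an overlap of 1 base set the class. Python 3.11.15 with numpy 2.4.6 and pysam 0.24.0 gave distances, coverage and GATC sites, and matplotlib 3.10.9 the plots. The code for intervals made no error when tested on simulated data. The 8 genes and the gene lists were chosen with earlier results of these data known. Named were the 8 genes, their flanking LADs, the nearest coding gene on each side, those not II within 250 kb, the 3 most similar genes, and the non-II, nearest and farthest genes of each list, of which a selection is given. 1 listed relative, *Cebpd*, has no protein-coding record and was left out. Where a symbol had several records, the longest was used. Some items are not reported here. The motifs were added after the data were seen. Ages, pooling and lentivirus time are as the study's methods give them. No test was made, because each genotype has 1 library of each construct.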

Additional observations from a re-analysis of the deposited data

How the results depend on the processing

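No paired analysis was possible because each genotype has 1 library of each construct and no result comes from a test. A value was taken as moved when it changed by more than 1.5 times. The medians in KO rested most on short LADs. With the full lists, the median LAD-free stretch was 1187.9 kb in WT and 335.3 kb in KO. It was 713.5 kb and 174.5 kb over all protein-coding genes, and 1983.9 kb and 610.7 kb over the II genes. With LADs of at least 20 kb alone, the median distance was 399.0 kb in WT and 115.6 kb in KO, and the median stretch 1243.5 kb and 659.5 kb. With LADs of at least 50 kb, the median distance was 473.7 kb in WT and 144.7 kb in KO, and the median stretch 1462.5 kb and 1338.1 kb. At that limit 4 of the 8 genes were nearer in KO, and the median coverage of 1000 kb was 7.12% in WT and 8.99% in KO. The number of II genes was 8 in both cases. Joining LADs across gaps of up to 20 or 50 kb made 1 gene, *Foxa1*, IP. Extending LADs by 10 kb at each end left 4 genes II and made 4 IP (*Foxa1*, *Foxa2*, *Onecut1* and *Onecut2*). The share of all genes that become IP when LADs are joined or extended is not given, so these counts have no share beside them. The 100 kb centered on the gene left 3 II and made 5 IP, against 27.1% IP of all protein-coding genes. Asking for 10% of the gene span, the start alone or differences of any length kept all 8 II. Measured from the nearest end of the span, the median KO distance was 15.7 kb. Median WT coverage was 3.94% in 500 kb and 0% in 200 kb. LADs under 10 kb are not listed, and the closest borders lie 3 to 18 GATC sites from a start, so a shift of a few sites would change those distances. Without read counts, the precision of a border is unknown.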

Other observations

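Of 45 family members located in the annotation, 31 were II, 10 IP, 2 PI, 1 PP and 1 AMB, a count of IP genes not far from the 17.1% of all protein-coding genes. All 10 IP genes among them were forkhead genes, but forkhead genes make up 40 of the 45, so this says little of the forkhead family. *Foxc1*, *Foxe3*, *Foxi2* and *Foxi3*, developmental factors of mesoderm, lens and ectoderm, had 0% of their span in LADs in WT and 100% in KO, and *Foxm1*, a factor of dividing cells, had 0% and 94.2%. *Hnf4g*, the relative of *Hnf4a*, was PI with 99.4% of its span in LADs in WT and 67.1% in KO. The median distance of the 45 genes was 266.2 kb in WT and 29.4 kb in KO, and 42 of them (93.3%) were nearer in KO. *Foxo1* is counted here and among the other liver factors.

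Of 28 factors that set lineages of other tissues, 14 were II, 11 IP, 1 PP and 2 AMB. Over all protein-coding genes, 56.6% were II and 17.1% IP. The IP genes included *Myod1* of muscle, *Neurog1*, *Neurog2* and *Neurod1* of neurons, *Neurog3* and *Ptf1a* of pancreas and *Nkx2-1* of lung and thyroid. *Myod1*, *Neurog2*, *Neurog3*, *Neurod1*, *Ptf1a* and *Nkx2-1* lay wholly in KO LADs and in no WT LAD. *Neurog3* was 1308.2 kb from the nearest WT LAD. The PP gene was *Myf5*, another muscle factor, and *Runx1* and *Runx2* were AMB. The median distance of the 28 genes was 129.8 kb in WT and 12.3 kb in KO, against 114.4 kb and 25.6 kb over all protein-coding genes. Of the 28, 22 (78.6%) were nearer in KO. *Pax6* differed little by its start (13.2 kb in WT, 13.3 kb in KO), although 37.4% of its span was in KO LADs. Counts in these lists are descriptions of 1 library pair for each genotype.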
